A study of Homo sapiens with 6 samples.

Results

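Toll-like receptors (TLRs) are membrane proteins that recognise molecules of bacteria, fungi and viruses. TLR1, TLR2, TLR4 and TLR6 work at the cell surface, whereas TLR7, TLR8 and TLR9 sit in endosomes and bind nucleic acids. TLR4 binds lipopolysaccharide together with its co-receptor LY96 (MD-2), to which CD14 passes the ligand, and TLR2 pairs with TLR1 or TLR6 to bind lipopeptides. MYD88 is the cytoplasmic adaptor that all of these receptors use to recruit IRAK kinases, a route that ends in NF-kB and cytokine genes. In monocytes and neutrophils these receptors are a main trigger of the inflammatory response.

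The gene set held these 7 receptors, both co-receptors and the adaptor, 10 of the 58884 genes in the table, picked by gene symbol and each matched by 1 row. Of the 10, 6 passed the expression filter (filterByExpr of edgeR) and are called measured. TLR7, TLR8, TLR9 and CD14 did not pass. The 6 libraries came from HL-60, an established RAS-mutated acute myeloid leukemia line. The EZH2 shRNA group (3 libraries, numbered 1, 3 and 4) had received a lentiviral short hairpin RNA against EZH2, the histone H3 lysine 27 methyltransferase of PRC2. The control shRNA group (3 libraries, numbered 3, 4 and 5) carried a scrambled hairpin in a matching vector. Cells of both groups were stable after puromycin selection, had the drug washed out 2 days earlier, and spent the last 24 hours in medium with 0.05% fetal bovine serum. The comparison asks how expression differs in RAS-mutated leukemia cells when EZH2 is reduced. The labels call the cells a stable knockdown, whereas the series' design text speaks of knock-out lines. No TLR ligand is described for either group, so the values are levels without a stated stimulus.

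Total counts were between 39717343 and 85074624 per library. EZH2 itself, the targeted gene, was at 79.98 ± 3.01 CPM (counts relative to library size, after TMM scaling) in EZH2 shRNA libraries and 149.5 ± 1.61 CPM in control libraries (SD, n = 3 each). The promyelocyte marker MPO was at 9416 ± 210 CPM in EZH2 shRNA libraries and 9795 ± 435 CPM in control libraries, while ELANE, another such marker, was at 0.145 CPM in EZH2 shRNA libraries and 0.0349 CPM in control libraries and did not pass the filter. T cell markers summed to at most 0.261 CPM in any library. Whether the 3 lines of a group were transduced separately is not stated, and the p-values therefore reflect library-to-library spread that could be technical. In bulk RNA, fewer expressing cells and less RNA per cell cannot be told apart.

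Of the 6 measured members TLR4 rose, TLR6 and MYD88 fell, and TLR1, TLR2 and LY96 did not pass the test. That is 3 of 6, against 46.7% of all 16859 genes tested, so the share of members called was near the background (23.8% of all genes were higher and 22.9% lower). The groups did not overlap for these 3 of 6 either, against 54.9% of all genes tested. The median log2 fold change of the 6 was -0.24, against 0.01 over all genes tested. Among the members, TLR7, TLR8, TLR9 and CD14 were at or near 0 counts in both groups.

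Levels per gene length, as FPKM (fragments per kilobase of gene length, scaled for depth), put the adaptor first in both groups. MYD88 averaged 9.19 ± 0.67 FPKM in EZH2 shRNA libraries and 12.2 ± 0.45 FPKM in control libraries. TLR4 followed at 2.77 ± 0.08 FPKM in EZH2 shRNA libraries and 1.73 ± 0.06 FPKM in control libraries. TLR2 came next, with 1.51 ± 0.08 FPKM in EZH2 shRNA libraries and 1.63 ± 0.15 FPKM in control libraries (SD, n = 3 each, for all levels here). In the EZH2 shRNA libraries TLR4 lay above TLR2 with no overlap, whereas the ranges of these receptors overlapped in the control libraries. The next pair changed places between groups: LY96 was at 0.39 ± 0.12 and TLR6 at 0.30 ± 0.04 FPKM in EZH2 shRNA libraries, and LY96 was at 0.37 ± 0.16 and TLR6 at 0.60 ± 0.02 FPKM in control libraries. The ranges of LY96 and TLR6 overlapped in EZH2 shRNA libraries and did not in control libraries. TLR1 was lower, at 0.081 ± 0.013 FPKM in EZH2 shRNA libraries and 0.110 ± 0.046 FPKM in control libraries. TLR8 and CD14 were each under 0.07 FPKM in every library, with overlapping ranges, and TLR9 and TLR7 were last. FPKM depends on the gene length used. Counts divided by FPKM and by library factors gave 13277 bases for TLR4, 3989 for MYD88, 5217 for TLR2, 6035 for TLR6 and 607 for LY96. Comparisons per length of TLR4 with LY96, MYD88 or TLR2 thus rest on very unequal lengths.

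**Figure D1:**
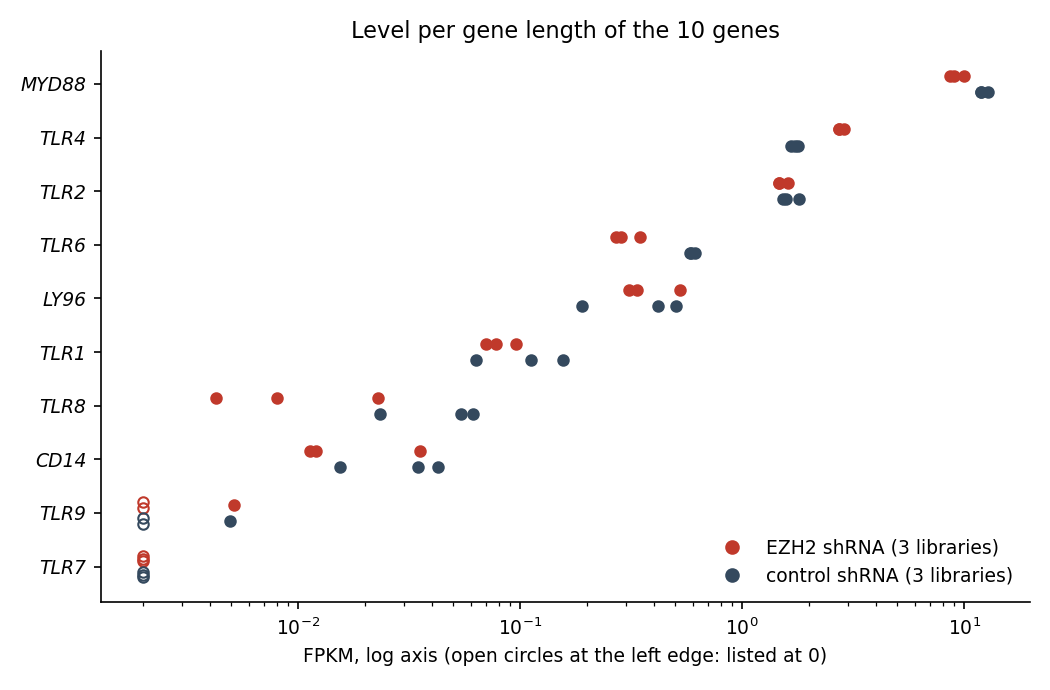
FPKM of the 10 genes in each library on a log axis, with EZH2 shRNA libraries above control libraries for each gene. TLR4 lay between 2.72 and 2.86 FPKM in EZH2 shRNA libraries and between 1.67 and 1.78 FPKM in control libraries, and open circles at the left edge mark libraries listed at 0.

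TLR4 (ENSG00000136869; GRCh38 chromosome 9, 117704175 to 117724735, plus strand), the lipopolysaccharide receptor, was the member that rose. It had 38.4, 36.3 and 36.5 CPM in EZH2 shRNA libraries 1, 3 and 4, against 23.1, 22.2 and 23.7 CPM in control libraries 3, 4 and 5. Every EZH2 shRNA library was above every control library, a pattern shared by 27.9% of all genes tested. The fold change was 1.61, or 0.69 on the log2 scale (SE 0.05, 95% interval 0.58 to 0.81, edgeR adjusted p = 2.31e-08). An exact permutation test (two-sided) of TLR4, and likewise of TLR6 and of MYD88, gave 0.1, and with 3 libraries on each side it cannot give less. The ratio of TLR4 to TLR2, both in FPKM, was 1.78, 1.85 and 1.87 in EZH2 shRNA libraries and 1.10, 1.09 and 0.98 in control libraries. The median log2 fold change of chromosome 9 genes was 0.05. The nearest measured gene on the higher-coordinate side of TLR4 was the long non-coding RNA AL160272.1, 34720 bases away, which did not pass (0.27 CPM in EZH2 shRNA libraries and 0.18 CPM in control libraries, log2 fold change 0.61, edgeR adjusted p = 0.256). The nearest on the other side was ASTN2, 289105 bases away, which was at 1.58 CPM in EZH2 shRNA libraries and 0.63 CPM in control libraries (log2 fold change 1.35, edgeR adjusted p = 0.000639). ASTN2 is overlapped by RPL10P3 on the same strand (13.6 CPM in EZH2 shRNA libraries and 7.64 CPM in control libraries) and by TRIM32 on the other (11.6 CPM in EZH2 shRNA libraries and 7.27 CPM in control libraries), so part of its reads may belong to these genes.

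The co-receptors of TLR4 were far lower than TLR4 itself. LY96 (ENSG00000154589; GRCh38 chromosome 8, 73991352 to 74029087, plus strand), which TLR4 needs to bind lipopolysaccharide, had 16, 11 and 16 counts in EZH2 shRNA libraries 1, 3 and 4, against 10, 6 and 13 counts in control libraries 3, 4 and 5. The groups overlapped, and the log2 fold change of 0.08 had a 95% interval of -0.89 to 1.06 (edgeR adjusted p = 0.899), so no change within that interval was detectable at this depth. TLR4 exceeded LY96 by 5.46, 8.09 and 8.86 times in FPKM in EZH2 shRNA libraries and by 4.16, 8.81 and 3.53 times in control libraries. CD14 (ENSG00000170458; GRCh38 chromosome 5, 140631728 to 140633701, minus strand), the lipopolysaccharide carrier of monocytes, had 1, 1 and 5 counts in EZH2 shRNA libraries and 1, 3 and 3 counts in control libraries. These 7 counts in each group gave a depth-scaled ratio of 0.712 (95% counting interval 0.213 to 2.38), so no difference was detectable.

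TLR2 (ENSG00000137462; GRCh38 chromosome 4, 153684070 to 153705702, plus strand), the lipopeptide receptor common to both dimers, had 8.46, 7.71 and 7.69 CPM in EZH2 shRNA libraries, against 8.20, 7.96 and 9.45 CPM in control libraries. The groups overlapped, and the log2 fold change of -0.10 had a 95% interval of -0.30 to 0.09 (edgeR adjusted p = 0.392). Its partner TLR6 (ENSG00000174130; GRCh38 chromosome 4, 38823715 to 38856817, minus strand) had 2.11, 1.64 and 1.73 CPM in EZH2 shRNA libraries, against 3.52, 3.57 and 3.72 CPM in control libraries. Every EZH2 shRNA library lay below every control library, a pattern shared by 27% of all genes tested. TLR6 fell to 50.5% of its control level (log2 fold change -0.99, SE 0.15, 95% interval -1.29 to -0.68, edgeR adjusted p = 2.87e-05). Its summed counts were 340 in EZH2 shRNA libraries and 483 in control libraries. In FPKM, TLR2 exceeded TLR6 by 4.64, 5.43 and 5.14 times in EZH2 shRNA libraries and by 2.70, 2.58 and 2.94 times in control libraries. On the scale of log2(FPKM + 1), where weakly expressed genes show smaller differences, the change of TLR6 was -0.30 and still passed (limma adjusted p = 0.00101).

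TLR1 (ENSG00000174125; GRCh38 chromosome 4, 38790677 to 38856817, minus strand), the alternative partner of TLR2, had 0.32, 0.35 and 0.44 CPM in EZH2 shRNA libraries, against 0.51, 0.29 and 0.71 CPM in control libraries. The lowest library was a control, so the groups overlapped, and the log2 fold change of -0.38 had a 95% interval of -1.14 to 0.38 (edgeR adjusted p = 0.411). Leaving out 1 library moved the value of TLR1 between -0.69 (without control library 4) and -0.05 (without control library 5). TLR6 and TLR1 are neighbours on the same strand whose annotated spans overlap. By position they shared 57 exonic bases in the GENCODE v44 annotation, 1.26% of TLR1 and 0.83% of TLR6. By sequence, 5.33% of the 50-base windows of TLR1 transcripts, the read length of the study, also occur in TLR6 transcripts, and 10.3% of windows in the TLR1 coding sequence do. The longest identical run is 218 coding bases. It is printed here because reads from it fit either gene and the way such reads were counted is not given, and 40 further bases are shown on each side, read from the hg38 genome on the minus strand. Capitals mark the only bases that differ between the genes, for TLR1 at chr4:38797196-38797493 and for TLR6 at chr4:38827823-38828120.
TLR1: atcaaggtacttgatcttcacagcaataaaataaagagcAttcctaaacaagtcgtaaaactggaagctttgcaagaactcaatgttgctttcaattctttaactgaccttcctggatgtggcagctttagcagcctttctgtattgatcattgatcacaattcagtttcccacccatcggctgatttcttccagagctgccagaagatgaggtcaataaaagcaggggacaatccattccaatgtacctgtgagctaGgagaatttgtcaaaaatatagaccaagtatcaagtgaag
TLR6: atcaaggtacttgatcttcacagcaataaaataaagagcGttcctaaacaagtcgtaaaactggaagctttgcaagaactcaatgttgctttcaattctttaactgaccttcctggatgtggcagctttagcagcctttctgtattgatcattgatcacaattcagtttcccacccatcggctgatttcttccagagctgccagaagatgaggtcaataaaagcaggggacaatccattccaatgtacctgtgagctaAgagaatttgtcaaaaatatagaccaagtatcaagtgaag
Of the measured genes next to this cluster, TMEM156, 109927 bases beyond TLR6, was at 7.51 CPM in EZH2 shRNA libraries and 10.1 CPM in control libraries (log2 fold change -0.43, edgeR adjusted p = 0.000351). KLF3, 89160 bases beyond TLR1, was at 15.4 CPM in EZH2 shRNA libraries and 17.8 CPM in control libraries (log2 fold change -0.21, edgeR adjusted p = 0.0212). The median log2 fold change of chromosome 4 genes was -0.07.

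**Figure D2:**
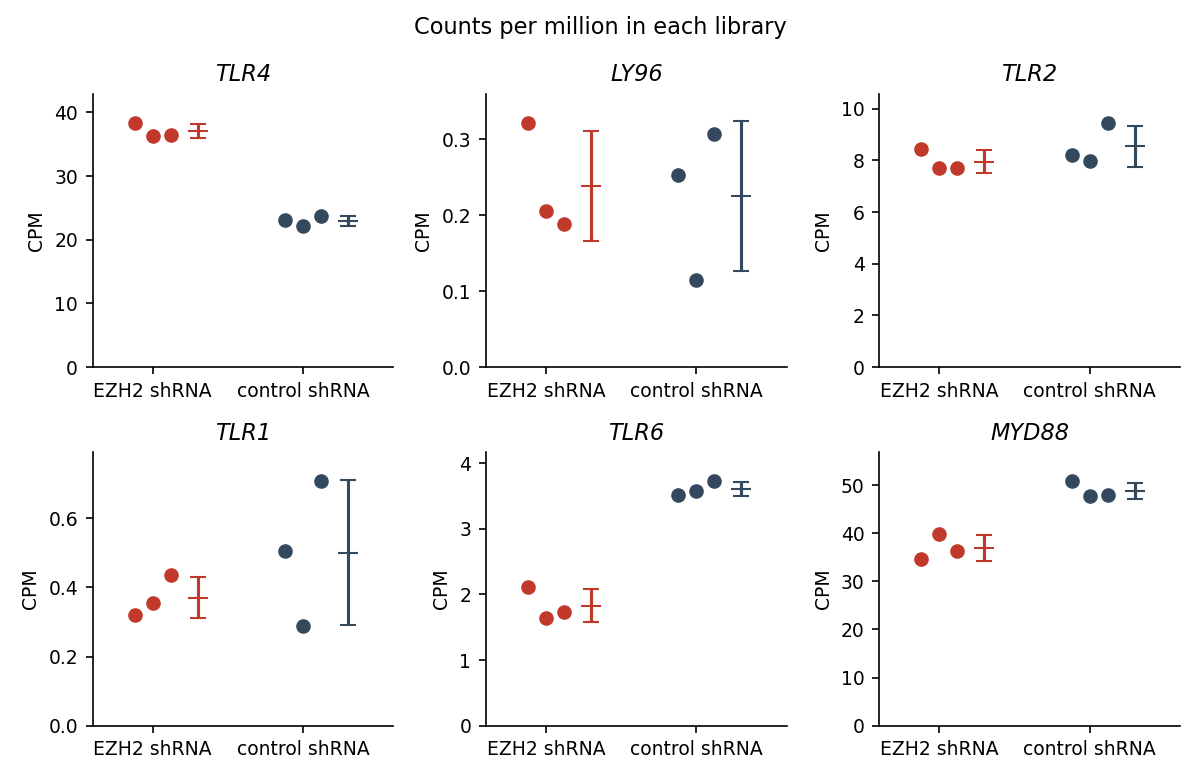
CPM of the 6 measured members in each library (points) with the mean and SD of 3 libraries, EZH2 shRNA on the left and control shRNA on the right, each axis starting at 0. The groups are apart for TLR4, TLR6 and MYD88 and overlap for LY96, TLR2 and TLR1.

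MYD88 (ENSG00000172936; GRCh38 chromosome 3, 38138478 to 38143022, plus strand) had 34.7, 39.8 and 36.3 CPM in EZH2 shRNA libraries, against 50.8, 47.8 and 47.9 CPM in control libraries. All 3 EZH2 shRNA libraries were below all 3 controls. The adaptor fell to 75.7% of its control level (log2 fold change -0.40, SE 0.06, 95% interval -0.52 to -0.29, edgeR adjusted p = 1.35e-05). Per length, MYD88 exceeded TLR4 by 3.01, 3.65 and 3.31 times in EZH2 shRNA libraries and by 7.33, 7.18 and 6.74 times in control libraries. The size of this ratio depends on the unequal gene lengths. Mean CPM of MYD88 and TLR4 was 36.9 and 37.1 in EZH2 shRNA libraries, and 48.8 and 23.0 in control libraries. The genes on either side did not pass the test: ACAA1, 1236 bases away on the other strand, was at 77.6 CPM in EZH2 shRNA libraries and 80.9 CPM in control libraries (log2 fold change -0.06, edgeR adjusted p = 0.245). OXSR1 on the far side was at 53.6 CPM in EZH2 shRNA libraries and 55.9 CPM in control libraries (log2 fold change -0.06, edgeR adjusted p = 0.278).

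**Figure D3:**
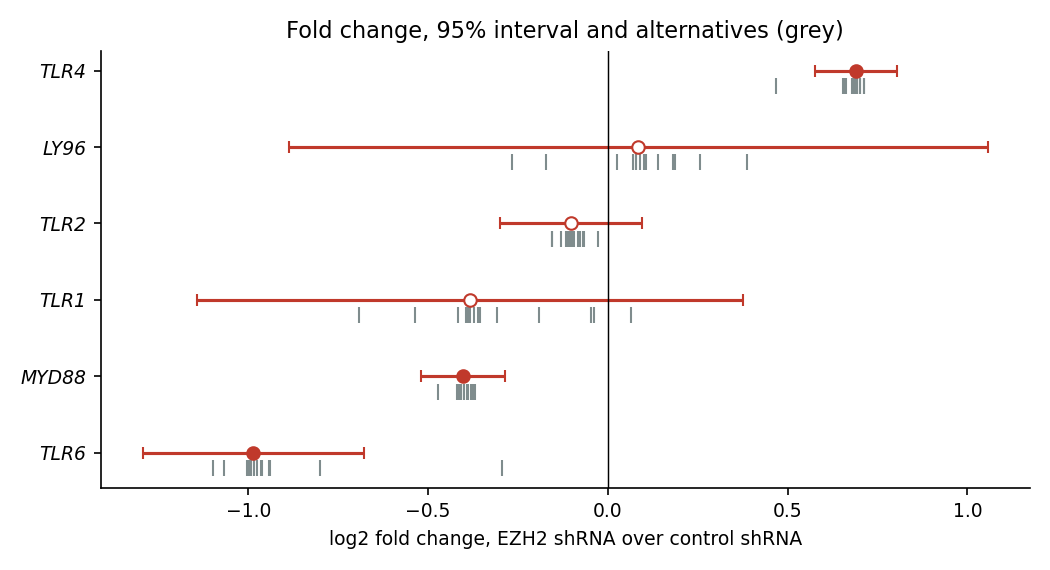
Log2 fold change of the measured members, EZH2 shRNA over control, with 95% intervals, where filled points had an adjusted p under 0.05 and grey ticks are the values under other processing choices. All ticks of TLR4 lie above 0 and all ticks of TLR6 and MYD88 below it, whereas those of LY96 and TLR1 fall on both sides.

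The 250 bases before the RefSeq start of the 3 members that changed are printed here to show what the promoter of the gene that rose and those of the genes that fell hold. RefSeq (GRCh38.p14) promoters were found for 7 of the 10 members. Capitals mark matches, on either strand, to 5 motifs: the core GAGGAA bound by PU.1 and other ETS factors, GAAA, any 2 bases and GAAA again of the interferon-stimulated response element, TTCNNNGAA bound by STAT factors, TTGCNNAA bound by C/EBP factors, and GGG, any 2 bases and TTTCC bound by NF-kB. The windows are chr9:117704153-117704402 (plus strand) for TLR4, chr3:38138411-38138660 (plus strand) for MYD88 and chr4:38856818-38857067 (minus strand) for TLR6. The deposited table starts TLR4 and MYD88 inside these windows, upstream of the RefSeq start, and gives TLR6 and TLR1 a common 5′ end at the edge of the TLR6 window.
TLR4: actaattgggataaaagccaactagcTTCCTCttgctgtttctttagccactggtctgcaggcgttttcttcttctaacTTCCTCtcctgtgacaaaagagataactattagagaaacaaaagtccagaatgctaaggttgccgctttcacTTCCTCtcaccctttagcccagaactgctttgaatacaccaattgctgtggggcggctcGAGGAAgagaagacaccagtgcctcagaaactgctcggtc
MYD88: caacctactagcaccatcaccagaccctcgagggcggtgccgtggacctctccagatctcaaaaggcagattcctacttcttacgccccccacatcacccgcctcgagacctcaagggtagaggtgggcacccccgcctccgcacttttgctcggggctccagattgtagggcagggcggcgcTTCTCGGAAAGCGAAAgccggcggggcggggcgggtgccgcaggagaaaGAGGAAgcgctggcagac
TLR6: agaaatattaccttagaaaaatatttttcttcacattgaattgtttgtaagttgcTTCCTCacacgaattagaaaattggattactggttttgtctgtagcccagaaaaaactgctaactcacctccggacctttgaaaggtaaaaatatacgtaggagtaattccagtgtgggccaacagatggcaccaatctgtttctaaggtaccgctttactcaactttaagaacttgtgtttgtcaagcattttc
TLR4 held 4 matches to GAGGAA, MYD88 and TLR6 held 1 each, and 23.6% of all 35116 RefSeq promoters hold at least 1 in this window. At least 4 were found in 18 promoters (0.0513%), a count looked up after the TLR4 sequence had been seen. MYD88 held GAAAGCGAAA at position -61 from the start, a match that 3.02% of promoters have, and TTCTCGGAA at position -67, which overlaps it and of which the kind occurs in 6.57% of promoters. No match to the NF-kB motif (1.73% of promoters) or to TTGCNNAA (9.05%) was found in these 3 windows. Among the other members with a promoter, GAGGAA also occurred in TLR9 and CD14, TTCNNNGAA in CD14 and TTGCNNAA in TLR8. The TLR4 and TLR6 windows held 5 and 4 CpG dinucleotides and that of MYD88 held 19, against a median of 11 over all promoters. TLR2, which did not pass the test, had 26. The marked matches of TLR4 and MYD88 all lie downstream of the deposited starts of these genes, inside the deposited spans. All matches describe the letters of the windows and no binding was measured.

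The endosomal receptors of the gene set, TLR7, TLR8 and TLR9, were scarcely detected. TLR7 (ENSG00000196664; chromosome X), a receptor of single-stranded RNA, had 0 counts in all 6 libraries, which allows up to 0.0159 CPM over the EZH2 shRNA libraries and 0.0224 CPM over the control libraries (3 counts of each group's total). TLR9 (ENSG00000239732; chromosome 3), the receptor of unmethylated CpG DNA, had 1 count in each group. However, 98.2% of the 50-base windows of TLR9 also belong to ENSG00000173366, a transcript model on the same strand that was listed at 0 counts, so reads from TLR9 may have been left uncounted. TLR8 (ENSG00000101916; GRCh38 chromosome X, 12906620 to 12923169, plus strand), another RNA receptor, had 5, 1 and 3 counts in EZH2 shRNA libraries, against 4, 14 and 10 counts in control libraries. The sums of 9 and 28 counts gave a depth-scaled ratio of 0.229 (95% counting interval 0.095 to 0.499). In CPM the groups did not overlap, but only just, at 0.1004 CPM in the highest EZH2 shRNA library and 0.1012 CPM in the lowest control library. TLR8 was below the expression filter. Without a filter its log2 fold change was -2.01 (edgeR adjusted p = 0.0298), and with DESeq2 it was -2.04 (adjusted p = 0.074). The filter also kept TLR8 in 4 of the fits that left out 1 library. There it passed without EZH2 library 1 (log2 fold change -2.76, edgeR adjusted p = 0.00678), without EZH2 library 3 (-1.75, 0.0401) and without control library 3 (-2.34, 0.0139), and did not pass without EZH2 library 4 (-1.78, 0.0748). The call of TLR8 thus depended on the filter, the tool and the libraries kept.

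The wider pathway was described with 10 gene lists, 107 genes in all, of which 77 were measured. Of these 27 rose, 31 fell and 19 did not pass, with a median log2 fold change of -0.06. The share called was 75.3%, against 46.7% of all genes tested. Among genes with a mean of at least 10 CPM it was 76.9% (40 of 52), against 59.2% of all such genes. The lists were chosen with earlier results of these data known, so these contrasts cannot show an excess of called genes in the pathway. For each list below the background is 23.8% higher and 22.9% lower among all genes tested. Among the other TLRs, TLR3, the double-stranded RNA receptor that signals through TICAM1 and not MYD88, was the measured one. It had 1.81, 1.88 and 1.65 CPM in EZH2 shRNA libraries, against 3.11, 2.88 and 2.24 CPM in control libraries (log2 fold change -0.63, SE 0.16, edgeR adjusted p = 0.00416). TLR5 and TLR10 had 0 counts in all control libraries, and the highest library, an EZH2 shRNA one, had 0.0707 CPM of TLR10.

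Of the endogenous ligands, 1 of 6 was measured. HMGB1, a nuclear protein that TLR2 and TLR4 can sense outside cells, was at 455 ± 39.7 CPM in EZH2 shRNA libraries and 412 ± 11.1 CPM in control libraries (log2 fold change 0.14, edgeR adjusted p = 0.0431). The groups overlapped. HMGB1 passed in 7 of 15 other processing settings, and its call ended without EZH2 library 1 (edgeR adjusted p = 0.199) or 4 (0.0934) and without control library 3 (0.139), 4 (0.135) or 5 (0.06). Of 8 accessory receptors 3 were measured and 2 fell. ITGB2, the beta chain of the integrin CD11b/CD18, was at 139 ± 2.38 CPM in EZH2 shRNA libraries and 207 ± 5.41 CPM in control libraries (log2 fold change -0.57, edgeR adjusted p = 4.06e-09). ITGAM, its alpha chain, was at 0.75 ± 0.16 CPM in EZH2 shRNA libraries and 1.18 ± 0.16 CPM in control libraries (log2 fold change -0.64, edgeR adjusted p = 0.0358). That call of ITGAM ended with DESeq2 (adjusted p = 0.0942), without EZH2 library 3 (edgeR adjusted p = 0.0977) and without control library 3 (0.121) or 5 (0.101). LBP, the lipopolysaccharide binding protein, did not pass (log2 fold change -0.07, edgeR adjusted p = 0.901). CD180, LY86, CD36, CLEC7A and TREM1 were below the filter.

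The chaperones and proteases of endosomal TLRs went both ways, with 3 of 10 measured genes higher, 4 lower and 3 not passing. UNC93B1, which carries TLR7, TLR8 and TLR9 to endosomes, was at 45.8, 52.3 and 49.5 CPM in EZH2 shRNA libraries, against 68.6, 71.3 and 64.5 CPM in control libraries (log2 fold change -0.47, edgeR adjusted p = 1.81e-06). CNPY3, a folding chaperone of TLRs, was at 97.3 ± 1.47 CPM in EZH2 shRNA libraries and 123 ± 2.67 CPM in control libraries (log2 fold change -0.34, edgeR adjusted p = 2.21e-06). The protease gene CTSS (-0.38) and the endolysosomal transporter gene SLC15A4 (-0.28) also fell on the log2 scale. The protease gene CTSB rose by 0.74, the transporter gene SLC15A3 by 1.57 and NRROS, a negative regulator of TLR surface transport that overlaps PIGX on the same strand, by 0.20.

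Enzymes that cut nucleic acids in the lysosomal pathway rose in 3 of 4 measured cases, against 23.8% of all genes tested. RNASET2, which degrades RNA into ligands of TLR8, was at 96.8, 98.7 and 95.9 CPM in EZH2 shRNA libraries, against 29.5, 38.2 and 33.3 CPM in control libraries. That was a log2 fold change of 1.52 (SE 0.07, edgeR adjusted p = 2.21e-08), while TLR8 itself stayed near 0 counts. RNASE2, also an eosinophil granule protein, rose by 0.56 on the log2 scale and the exonuclease gene PLD3 by 0.34. DNASE2, the lysosomal DNase, was at -0.15 on the log2 scale (edgeR adjusted p = 0.0455), with 6 of 15 other settings passing, and its call ended without EZH2 library 3 (edgeR adjusted p = 0.0554) or 4 (0.194) and without control library 3 (0.175), 4 (0.0613) or 5 (0.0748). PLD3 is overlapped by C19orf47 on the other strand, which was at 19.8 CPM in EZH2 shRNA libraries and 21.6 CPM in control libraries.

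Among adaptors and kinases 6 of 23 measured genes rose, 9 fell and 8 did not pass. IRAK4, the kinase that binds MYD88 directly, was at 42.4 ± 1.98 CPM in EZH2 shRNA libraries and 56.9 ± 1.83 CPM in control libraries (log2 fold change -0.43, SE 0.05, edgeR adjusted p = 1.99e-06). CHUK, a subunit of the IkB kinase, was at -0.44 on the log2 scale. TRAF3, a ubiquitin ligase of the interferon branch, rose by 0.40 and PELI2, a ligase that binds IRAKs, by 2.24. The related gene PELI1 fell, with 6.07 CPM in EZH2 shRNA libraries and 8.28 CPM in control libraries (log2 fold change -0.45, edgeR adjusted p = 0.00051). PELI1, TIRAP, TICAM1, IRAK1, TAB1 and MAP3K7 were singled out after their values were seen. TIRAP, the bridging adaptor that joins TLR2 and TLR4 to MYD88, fell by 0.53 on the log2 scale (edgeR adjusted p = 0.000464), and IRAK1 was at -0.08 (edgeR adjusted p = 0.0854). TICAM1 (TRIF), the adaptor of TLR3 and of internalised TLR4, was at 5.48, 5.58 and 4.96 CPM in EZH2 shRNA libraries, against 3.32, 2.94 and 3.16 CPM in control libraries (log2 fold change 0.77, SE 0.12, edgeR adjusted p = 3.72e-05). TICAM1 was higher in every EZH2 shRNA library, and MYD88, TIRAP and IRAK4 were lower in every one. The groups did not overlap for 54.9% of all genes tested. TAB1 (0.30 on the log2 scale, edgeR adjusted p = 5.33e-05) and MAP3K7 (0.18, edgeR adjusted p = 0.00162) were also higher in every EZH2 shRNA library. In the same list IKBKE fell by 0.37 on the log2 scale, TBK1 did not pass (-0.06, edgeR adjusted p = 0.401) and TICAM2 was below the filter. No branch of the pathway was tested as a whole. Without EZH2 library 3 the gene IRAK1 passed as well (edgeR adjusted p = 0.0354), as it did with scaling to library size only (0.0477).

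**Figure D4:**
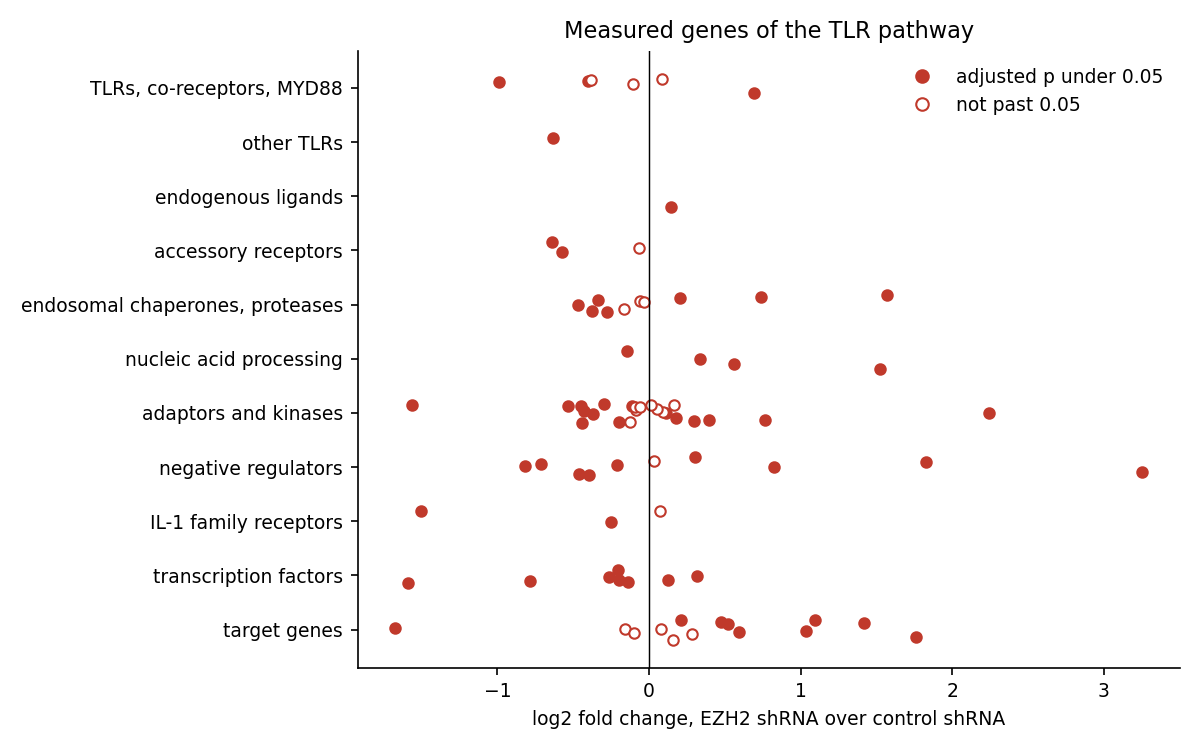
Log2 fold change, EZH2 shRNA over control, of each measured gene by list, with filled points for an adjusted p under 0.05. Most target genes that passed lie to the right of 0 (8 of 9) and most transcription factors to the left (6 of 8), and the other large lists spread to both sides. Over all genes tested 23.8% were higher and 22.9% lower, and the lists were chosen with earlier results known.

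Negative regulators rose in 4 and fell in 5 of 10 measured cases, against 23.8% higher and 22.9% lower of all genes tested. IL1RL1, a receptor of the interleukin 33 system, was at 4.31 ± 0.52 CPM in EZH2 shRNA libraries and 0.46 ± 0.11 CPM in control libraries (log2 fold change 3.25, edgeR adjusted p = 1.23e-09). It overlaps IL18R1 on the same strand, which was at 28.4 CPM in EZH2 shRNA libraries and 33.9 CPM in control libraries. CD300LF rose by 1.82 on the log2 scale and overlaps RAB37 on the other strand. SARM1 and the ubiquitin ligase gene RNF216 rose by 0.82 and 0.30. The deubiquitinase gene CYLD (-0.82), the ubiquitin-editing enzyme gene TNFAIP3 (-0.71), the IRAK decoy gene IRAK3 (-0.46), SIGIRR (-0.39) and TOLLIP (-0.21) fell, and TNIP1 did not pass (0.03, edgeR adjusted p = 0.583). In the list of interleukin 1 family receptors, which use MYD88 too, 2 of 3 measured genes fell. IL1RL1, which rose, belongs to this family as well but was sorted under negative regulators. IL18RAP was at 2.47 ± 0.11 CPM in EZH2 shRNA libraries and 7.01 ± 0.50 CPM in control libraries (log2 fold change -1.50), and the gene IL18R1 was at -0.25. IL1RAP did not pass (0.07, edgeR adjusted p = 0.419).

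Transcription factors of the pathway fell in 6 of 8 measured cases, against 22.9% of all genes tested, in a list chosen with earlier results known. IRF7, which drives interferon genes downstream of TLR7 and TLR9, was at 7.06 ± 0.18 CPM in EZH2 shRNA libraries and 21.2 ± 1.54 CPM in control libraries (log2 fold change -1.59, edgeR adjusted p = 6.72e-11). The NF-kB subunit genes REL, NFKB1 and RELA were at -0.79, -0.26 and -0.21 on the log2 scale. IRF3 (0.12, edgeR adjusted p = 0.0205) and IRF5 (0.31, edgeR adjusted p = 0.0308) were the 2 that rose. The call of IRF3 ended with DESeq2 (adjusted p = 0.0504), without EZH2 library 3 (edgeR adjusted p = 0.0506) or 4 (0.0831) and without control library 4 (0.123). IRF5 passed in 8 of 15 other settings. The call of IRF5 ended with DESeq2 (adjusted p = 0.0833), on log2 of FPKM plus 1 (limma adjusted p = 0.0582) or plus 0.1 (0.0609), without EZH2 library 3 (edgeR adjusted p = 0.121) or 4 (0.073) and without control library 3 (0.13) or 5 (0.0728). Reads of IRF3 may include those of BCL2L12, which overlaps it on the other strand.

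In the list of TLR target genes 8 of 14 measured genes rose and 1 fell, against 23.8% higher and 22.9% lower of all genes tested. Their median log2 fold change was 0.38, against 0.01 over all genes tested. SOD2, NFKBIZ, CXCL2, CCL20 and IL23A did not pass. The list was 1 choice of targets, and negative regulators and transcription factors were sorted into lists of their own, although NFKBIA, itself an inhibitor, was kept here. In those lists 4 negative regulators rose and 5 fell, and 2 transcription factors rose and 6 fell. The direction of the target list thus holds for this sorting only. TNF, the inflammatory cytokine, had 35.8, 38.9 and 33.2 CPM in EZH2 shRNA libraries, against 13.1, 13.5 and 13.6 CPM in control libraries (log2 fold change 1.42, edgeR adjusted p = 4.83e-11). NFKBIA, the inhibitor that NF-kB induces, rose by 0.52 on the log2 scale, the chemokine gene CXCL8 by 0.48 and the adhesion molecule gene ICAM1 by 0.60. The one that fell was IL1RN, the interleukin 1 receptor antagonist, at 0.13 ± 0.06 CPM in EZH2 shRNA libraries and 0.40 ± 0.15 CPM in control libraries (log2 fold change -1.68, edgeR adjusted p = 0.00686), and its call ended without control library 4 (0.072). IL6, PTGS2 and ACOD1 had 0 counts in every library, and IL1B was at 0.0711 CPM in EZH2 shRNA libraries and 0.0148 CPM in control libraries, below the filter.

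Markers of other blood cells went in different directions by list. Over all genes tested 23.8% were higher and 22.9% lower. Of 7 monocyte and macrophage markers 3 were measured and all 3 rose. The list's summed level was between 20.4 and 23.8 CPM in EZH2 shRNA libraries and between 7.69 and 9.33 CPM in control libraries, mostly from FCGR1A, while CD163, CD68 and MRC1 stayed below the filter. CSF1R, which is overlapped by the abundant pseudogene RPL7P1 on the other strand, was at 0.87 CPM in EZH2 shRNA libraries and 0.11 CPM in control libraries. CX3CR1 was at 0.64 CPM in EZH2 shRNA libraries and 0.20 CPM in control libraries. All 5 eosinophil markers rose, with summed levels between 190.1 and 211 CPM in EZH2 shRNA libraries and between 29.5 and 32.1 CPM in control libraries. Of 6 mature neutrophil markers 2 were measured and neither passed, with sums of 28.4 to 32.5 CPM in EZH2 shRNA libraries and 26.7 to 31.9 CPM in control libraries. Both measured plasmacytoid dendritic cell markers of 5 fell, with sums of 15.6 to 19.0 CPM in EZH2 shRNA libraries and 20.6 to 20.9 CPM in control libraries, mostly from TCF4, and CLEC4C had 0 counts. Of 4 B cell markers 2 were measured and PAX5 rose, with sums of 35.6 to 38.7 CPM in EZH2 shRNA libraries and 16.6 to 18.7 CPM in control libraries, while MS4A1 had 0 counts. Of 5 promyelocyte markers 4 were measured, and PRTN3 and AZU1 rose (2.14 and 0.69 on the log2 scale) while CTSG fell by 0.22. The part of such shifts in the values of TLR4, TLR6 and MYD88 was not tested.

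By the likeness rule, TLR6 was the measured member of at least 1 CPM with the largest change, and its profile over the 6 libraries was closest to those of HNRNPA3, DARS and IDI1 among 13419 genes (Pearson r of log2 CPM 0.999 for each). Their log2 fold changes were -0.43, -0.40 and -0.46. TLR2 had the smallest change, and its profile was closest to those of TUBB8P8, UBXN11 and CCHCR1 (r of 0.984, 0.969 and 0.964). These correlations are descriptions over 6 libraries in 2 groups, and each point carries its library's depth for both genes.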

How the data were processed

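Polyadenylated RNA of 6 HL-60 samples was sequenced as single reads of 50 bases from stranded libraries, per the labels' protocols. The authors deposited raw counts, whole reads per gene, and FPKM values. Per the submitters' processing notes, the tools were DESeq2 1.24.0, R 3.6.1, Picard 2.18.24 and STAR 2.5.2b, with the build GRCh38 (hg38). The counting program, its annotation, its strand setting and its treatment of reads that fit several genes were not given in the sources used here. Dividing counts by FPKM and DESeq2 library factors gave a whole gene length (tolerance 0.001) for 29060 of 29060 genes with a count, so the deposited FPKM values are the same counts rescaled.

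Computed here were CPM with TMM factors and edgeR's quasi-likelihood test (version 4.0.16, R 4.3.3, robust, group as the only term) on all 16859 genes kept by filterByExpr, with Benjamini-Hochberg adjustment over them at 0.05. Each SE is the size of the log2 fold change over the square root of F, and signed values are EZH2 shRNA over control. Alternatives were other scalings and filters, DESeq2 1.42.0, limma 3.58.1 on log2 of FPKM plus 1 or 0.1, the title numbers as a block, and leaving out each library. A floor of 3 counts was 0.0353 to 0.0759 CPM per library. Intervals of fold changes come from that SE and hold the spread between libraries, whereas count ratios and floors cover counting error only. Libraries of the same group differed by more than counting error (chi-square per degree of freedom 3.18 to 17.3). That spread could still be technical and does not show that the lines were independent.

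Named were all members, EZH2, per list up to 4 measured genes with the smallest p (every one in lists of 6 or fewer) and the 3 genes most like the members with the largest and smallest change. Further genes named were neighbours, markers, and TIRAP, TICAM1, IRAK1, SIGIRR, TOLLIP, TNIP1, SARM1, RNF216, CD300LF, IL1RN, IRF3, IRF5, NRROS, CTSS and SLC15A4, chosen after their values were seen. Also chosen in that way were PELI1, TAB1, MAP3K7, TICAM2, IKBKE, TBK1, SOD2, NFKBIZ, CXCL2, CCL20 and IL23A. The members and gene lists were chosen with earlier results of these data known. Scripts were tested on simulated counts. Transcript windows and coding sequences came from GENCODE v44 and hg38, and promoters from RefSeq.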

Additional observations from a re-analysis of the deposited data

How the results depend on the processing

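The rise of TLR4 and the falls of TLR6 and MYD88 kept their direction and passed in all 15 alternatives. Their log2 fold changes ran from 0.47 to 0.71 for TLR4, from -1.10 to -0.30 for TLR6 and from -0.47 to -0.37 for MYD88, with the smallest sizes of TLR4 and TLR6 on log2 of FPKM + 1. TLR2 did not pass in any of 15 (adjusted p 0.222 to 0.864). The log2 fold change of EZH2 lay between -0.95 and -0.87. Calls over the whole table numbered 6799 to 8122 (7866 in the fit reported), pathway genes called 49 to 59 (58), and members called 3 or 4, the additional one being TLR8 without a filter and without EZH2 library 1, EZH2 library 3 or control library 3. TLR1 and LY96 passed in none of their 14 alternatives and were removed by a filter of 1 CPM in 3 libraries. Leaving out 1 library moved the log2 fold change of TLR1 between -0.69 and -0.05, that of LY96 between -0.27 and 0.39, with negative values without control library 4 (-0.27) and EZH2 library 1 (-0.17), and that of LBP between -0.31 and 0.18, positive without control libraries 3 (0.09) and 4 (0.0023) and EZH2 library 3 (0.18). The causes were not tested.

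The title numbers 3 and 4 occur in both groups but no label says that they pair the libraries. Same-numbered libraries had deviations from their group means that correlated at 0.07 and 0.08 across genes. With the title number as a replicate block the gene TLR1 was at 0.064 (adjusted p = 0.926), TLR4 at 0.69, TLR6 at -1.07 and MYD88 at -0.37, and these last 3 were still called. The block ended the calls of HMGB1 (adjusted p = 0.115) and ITGAM (0.0673). Members with few counts (LY96, TLR1, TLR8, CD14) are limited by depth.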
